A study of Mus musculus with 8 samples.

Results

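The BMP and GDF ligands described here are the 10 genes Bmp2, Bmp3, Bmp4, Bmp5, Bmp6, Bmp7, Gdf5, Gdf6, Gdf10 and Gdf11, chosen by name from the 43346 gene identifiers that were counted, and all 10 were found. RNA was sequenced from notochord-derived cells (NDCs) of Shh-cre;ROSA:YFP mice, in which Cre made from the Shh gene switches on a yellow fluorescent protein (YFP) in cells that express Shh and in their progeny. The E12.5 group was 4 litters of embryos whose notochords were dissected whole and not sorted. The P0 group was 4 litters of newborns whose nucleus pulposus (NP) cells were shaken free of lumbar and thoracic discs, strained and sorted for YFP. All 8 litters carried the same alleles, none was treated, and the animals of a litter were pooled into 1 sample. Shh is also expressed in the floor plate of the neural tube, so YFP alone does not restrict a sort to the notochord lineage. Stage, method of isolation and the part of the axis sampled cannot be told apart in this design. In bulk RNA fewer cells of a type and less RNA per cell cannot be told apart either.

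BMPs and GDFs are secreted dimers of the TGF-β superfamily that bring together type I and type II receptor kinases, which then phosphorylate Smad proteins. Most of these ligands act through Smad1, Smad5 and Smad9, whereas Gdf11 acts through Smad2 and Smad3 as activins do. In the embryonic axis BMPs drive the commitment of sclerotome cells to cartilage, and the notochord itself secretes antagonists that keep BMPs from their receptors.

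Reads counted on genes numbered 4442775 to 7180221 per E12.5 litter and 6371842 to 8904050 per P0 litter. CPM is the count of a gene scaled to the normalized library size. On this scale 3 counts equal 0.353 to 0.738 CPM, a floor that covers counting error only. Of the 7 notochord markers, T, Foxa2, Krt8 and Krt18 were not called different between stages, Krt19 was higher and Shh lower at P0, and Noto was at or near 0 in every litter. Their summed level was 914.5 to 3087 CPM at E12.5 and 993.5 to 4029 CPM at P0. Markers of other cells moved with stage: 7 of 7 sclerotome markers were lower at P0, with sums of 132 to 187 CPM against 7.77 to 21.8 CPM, and 5 of 6 erythroid markers were lower, with sums of 9404 to 42170 CPM against 155 to 488 CPM. All 10 leukocyte markers were higher, with sums of 42.0 to 84.1 CPM at E12.5 against 722 to 5965 CPM at P0, and 5 of 6 tested osteoblast markers were higher, with sums of 30.0 to 88.2 CPM against 342 to 715 CPM. The part of these cells in the ligand values was not tested. The E12.5 litters NDP10-2 and NPD9-2 had the highest shares of reads that fell on more than 1 gene, 16.3% and 17.5% against 7.07% to 11.6% in the others. The E12.5 litter NPD4 had 1274 CPM of neural tube markers against 96.6 to 153 CPM in the other E12.5 litters. Most of that sum came from the neuronal genes Tubb3 (576 CPM), Dcx (378 CPM) and Elavl3 (289 CPM). In NPD4 Sox2, at 27.0 CPM, was the highest of its stage, but Pax6, at 1.57 CPM, was the lowest. Nkx2-2, Neurog2 and Olig2 were at 1.57, 0.967 and 0.121 CPM there. The P0 litter NPD30 had the fewest leukocyte and the most notochord transcripts of its stage.

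Promoter sequences were on hand from RefSeq (GRCm38.p6) for Bmp4, Bmp5, Bmp6, Gdf10 and Gdf11, each covering 250 bases before and 50 after the transcript start. They are shown for the 3 of these ligands with lower mRNA abundance at P0 (Bmp4, Gdf10, Gdf11) and for Bmp5, which was not called different, so that the start regions of ligands with unlike behavior can be read together. Capitals mark the GC box GGGCGG and the TATA box TATAAA on either strand, with overlapping matches counted separately. A GC box was found in 35.7% and a TATA box in 13.6% of the 32851 RefSeq promoters of the same length.
Bmp4, chr14:46390620-46390919, minus strand: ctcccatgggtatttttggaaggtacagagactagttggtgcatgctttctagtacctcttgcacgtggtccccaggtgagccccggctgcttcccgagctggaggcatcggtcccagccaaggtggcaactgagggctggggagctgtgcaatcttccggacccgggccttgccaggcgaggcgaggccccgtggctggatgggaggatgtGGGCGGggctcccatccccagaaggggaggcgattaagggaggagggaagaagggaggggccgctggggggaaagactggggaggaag
Gdf10, chr14:33923337-33923636, plus strand: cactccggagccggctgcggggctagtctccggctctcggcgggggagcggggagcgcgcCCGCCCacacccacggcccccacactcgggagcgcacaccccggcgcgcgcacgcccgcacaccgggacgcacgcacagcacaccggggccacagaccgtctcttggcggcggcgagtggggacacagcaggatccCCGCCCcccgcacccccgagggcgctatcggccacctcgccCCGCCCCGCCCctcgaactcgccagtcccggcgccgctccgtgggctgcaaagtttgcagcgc
Gdf11, chr10:128891669-128891968, minus strand: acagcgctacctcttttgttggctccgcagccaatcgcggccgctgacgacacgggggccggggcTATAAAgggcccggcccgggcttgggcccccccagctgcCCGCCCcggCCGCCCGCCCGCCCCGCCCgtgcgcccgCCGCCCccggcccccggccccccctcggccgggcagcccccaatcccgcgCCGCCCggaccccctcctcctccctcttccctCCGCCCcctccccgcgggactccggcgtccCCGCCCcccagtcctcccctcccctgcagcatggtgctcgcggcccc
Bmp5, chr9:75775115-75775414, plus strand: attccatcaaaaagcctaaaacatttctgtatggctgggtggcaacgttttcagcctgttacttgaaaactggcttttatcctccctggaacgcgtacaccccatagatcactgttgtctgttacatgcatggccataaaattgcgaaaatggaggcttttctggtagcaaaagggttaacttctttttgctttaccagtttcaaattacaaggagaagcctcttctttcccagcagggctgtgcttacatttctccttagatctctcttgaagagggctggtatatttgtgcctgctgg

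The start regions were unlike in base composition. The Gdf11 window was 80.7% G and C with 9 GC boxes and 1 TATA box, and the Gdf10 window was 77.3% with 4 GC boxes. The Bmp4 window was 64% with 1 GC box, and the Bmp5 window was 43.3% with none of these motifs. The median over all promoters was 52.7%, with quartiles of 45.7% and 61.7%. The Gdf10 window held 42 CpG, that of Gdf11 36, that of Bmp4 12 and that of Bmp5 4, against a median of 7. Bmp6, not called different, had 69.3% G and C, 27 CpG and 1 GC box, so among these windows a GC-rich one was not restricted to ligands that fell. The Bmp6 window, chr13:38345466-38345765, lies inside the Gencode gene, which starts at base 38345107. Bmp3 and Bmp7, which also fell, had no sequence on hand. A match is a run of letters and does not show that a factor was bound.

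Abundance of 5 of the 8 ligands that passed the filter on low counts was significantly lower at P0 compared to E12.5, and none was significantly higher. Bmp3, Bmp4, Bmp7, Gdf10 and Gdf11 fell, Bmp2, Bmp5 and Bmp6 were not called, and Gdf5 and Gdf6 were too scarce to test. A call is an adjusted p under 0.05 from edgeR's quasi-likelihood test, with the Benjamini-Hochberg method over all 15467 genes tested, and every adjusted p of a single gene given here comes from that fit unless another tool is named. Of all genes tested, 12% were called lower, 16% higher and 27.9% in either direction. The median log2 fold change, P0 over E12.5 here and throughout, was -1.65 over the 8 tested ligands against 0.04 over all tested genes. At an unadjusted p under 0.05, 0 ligands were higher and the same 5 were lower, and DESeq2 and limma-voom also called 0 higher. The 5 that fell were also those in which every P0 litter lay below every E12.5 litter, which 14.4% of all tested genes did.

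**Figure D1:**
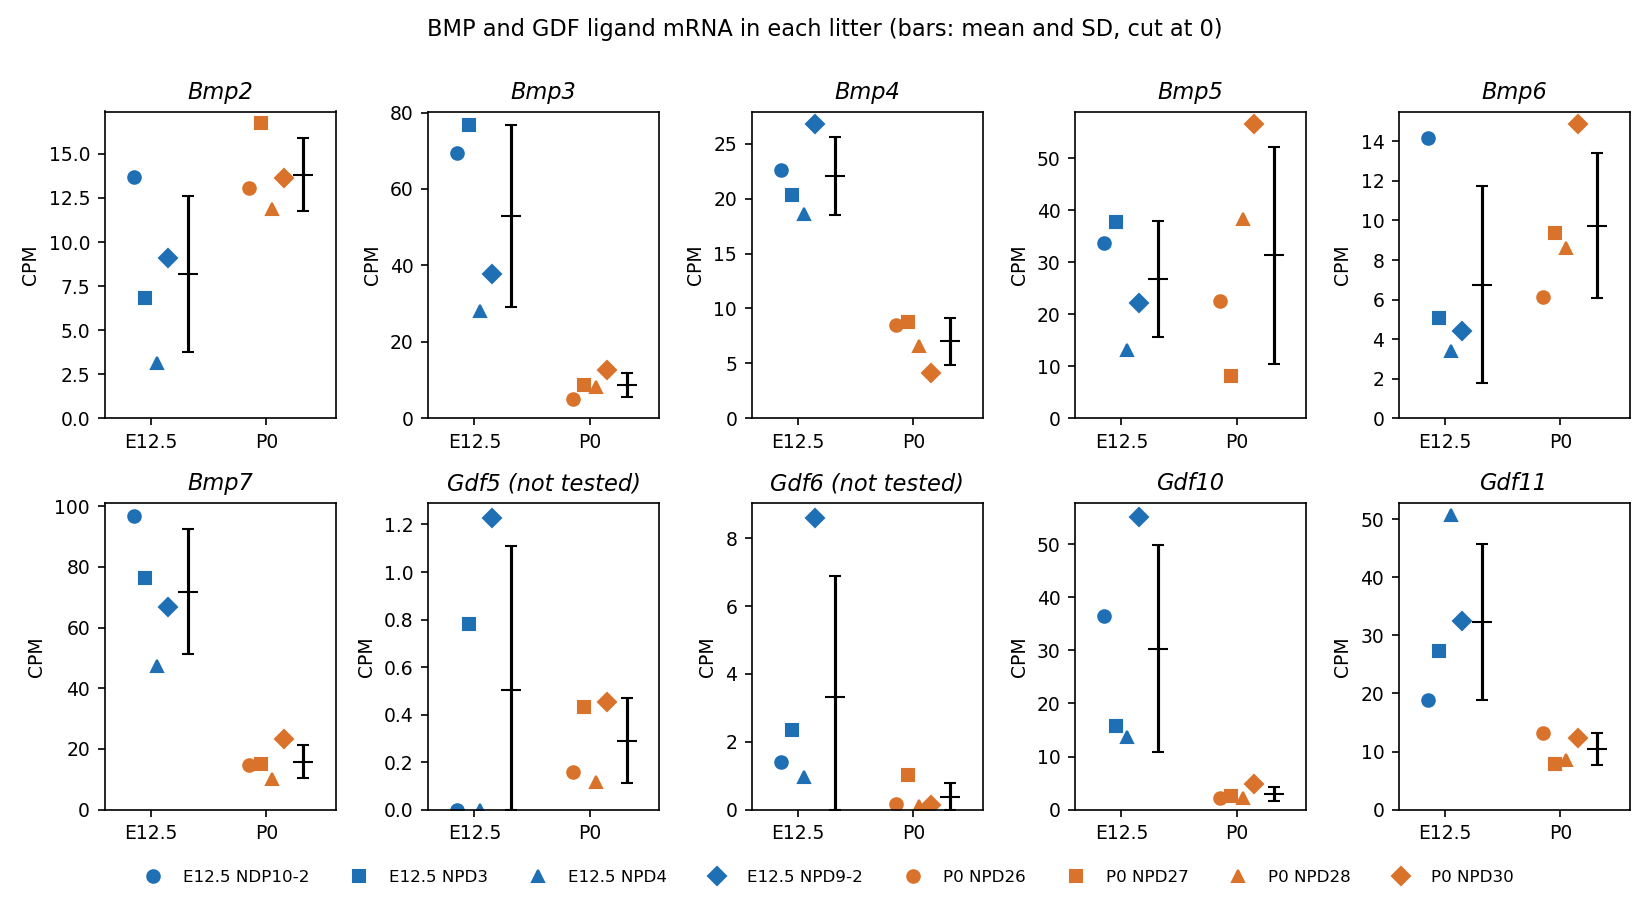
Abundance of the 10 ligand mRNAs in CPM (vertical axes from 0, scaled to each gene) in the 4 E12.5 litters (blue) and 4 P0 litters (orange), with the mean and SD beside each stage. Points of the stages do not overlap for Bmp3, Bmp4, Bmp7, Gdf10 and Gdf11, and do overlap for Bmp2, Bmp5, Bmp6, Gdf5 and Gdf6.

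Bmp2 and Bmp4 are close relatives and both are strong inducers of cartilage and bone. Values of single litters are given below in the order NDP10-2, NPD3, NPD4 and NPD9-2 at E12.5 and NPD26, NPD27, NPD28 and NPD30 at P0. Bmp4 (ENSMUSG00000021835.10, chr14:46383520-46390669, minus strand, Gencode M21 on GRCm38) was at 22.6, 20.3, 18.6 and 26.8 CPM at E12.5 and at 8.49, 8.80, 6.59 and 4.09 CPM at P0. The lowest E12.5 litter stood well above the highest P0 litter, and the E12.5 litters were close together. Bmp4 was 3.15-fold lower at P0 (log2 fold change -1.65 ± 0.31 SE, adjusted p = 0.00321). Bmp2 (ENSMUSG00000027358.6, chr2:133552159-133562885, plus strand) was at 13.7, 6.83, 3.14 and 9.10 CPM at E12.5 and at 13.1, 16.7, 11.9 and 13.6 CPM at P0. The P0 litters were alike, while the E12.5 litters were spread out and NDP10-2 alone reached the P0 range. The log2 fold change of Bmp2 was 0.77 ± 0.41 SE and did not pass the test (adjusted p = 0.195).

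Bmp5, Bmp6 and Bmp7 form a further subfamily, and Bmp7 is made by the notochord of the early embryo. Bmp7 (ENSMUSG00000008999.7, chr2:172868012-172940321, minus strand) was at 96.7, 76.5, 47.3 and 66.9 CPM at E12.5 and at 14.62, 15.14, 10.24 and 23.2 CPM at P0. Even the highest P0 litter, NPD30, stood below the lowest E12.5 litter, NPD4. Bmp7 was 4.54-fold lower at P0 (log2 fold change -2.18 ± 0.31 SE, adjusted p = 0.000794), and the change was -2.46 to -2.01 with any 1 litter left out. Bmp5 (ENSMUSG00000032179.7, chr9:75775364-75900310, plus strand) was at 33.7, 37.7, 13.2 and 22.1 CPM at E12.5 and at 22.5, 8.08, 38.3 and 56.6 CPM at P0. Both the lowest and the highest litter were P0 litters, and the stages overlapped throughout. The log2 fold change of Bmp5 was 0.24 ± 0.53 SE (adjusted p = 0.78), and without the P0 litter NPD30 it was -0.25 (adjusted p = 0.757). Bmp6 (ENSMUSG00000039004.5, chr13:38345107-38500302, plus strand) was at 14.2, 5.07, 3.38 and 4.43 CPM at E12.5 and at 6.13, 9.37, 8.59 and 14.9 CPM at P0. At E12.5 NDP10-2 stood apart from the other 3 litters, which were all below the P0 litters. The log2 fold change of Bmp6 was 0.54 ± 0.50 SE (adjusted p = 0.458).

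Overlapping genes limit the Bmp5 and Bmp6 values, because the use of strand in counting is not given in the sources used here. An antisense gene, Gm26903, covers 46.7% of the exon bases of Bmp5, and it had 76 counts in all 8 litters together. Txndc5, which lies on the opposite strand and had 7011 counts, covers 5.74% of the exon bases of Bmp6.

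Bmp3 and Gdf10 (also called Bmp3b) are divergent members that oppose the osteogenic BMPs in several settings. Bmp3 (ENSMUSG00000029335.4, chr5:98854415-98884396, plus strand) was at 69.3, 76.7, 27.9 and 37.6 CPM at E12.5 and at 5.03, 8.65, 8.12 and 12.6 CPM at P0. The E12.5 litters split into a higher and a lower pair, and even the lower pair exceeded every P0 litter. Bmp3 was 6.13-fold lower at P0 (log2 fold change -2.62 ± 0.39 SE, adjusted p = 0.00101). Gdf10 (ENSMUSG00000021943.6, chr14:33923587-33937983, plus strand) was at 36.6, 15.8, 13.7 and 55.1 CPM at E12.5 and at 2.20, 2.60, 2.24 and 4.85 CPM at P0. Its 2 highest litters were NDP10-2 and NPD9-2, which had the most ambiguous reads and the most erythroid transcripts (21949 and 42170 CPM against 9404 and 9515 CPM), and the other E12.5 litters also exceeded every P0 litter. With all 8 litters Gdf10 had the largest change of the tested ligands, 10.1-fold lower at P0 (log2 fold change -3.34 ± 0.52 SE, adjusted p = 0.00114). The exons of Gdf10 overlap no other counted gene, and the part of either trait in its values was not tested. Without NDP10-2 and NPD9-2 its log2 fold change was -2.34 (adjusted p = 0.0188), smaller than that of Bmp3 at -2.64, in a fit that called 6.41% of all tested genes lower.

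Gdf11, which patterns the embryonic axis along its length and helps time neurogenesis, was the remaining ligand that fell. Gdf11 (ENSMUSG00000025352.6, chr10:128882295-128891718, minus strand) was at 18.9, 27.3, 50.7 and 32.5 CPM at E12.5 and at 13.2, 7.79, 8.48 and 12.3 CPM at P0. The stages did not overlap. The highest value was that of NPD4, the litter with the highest sum of neural tube markers, which was mostly Tubb3, Dcx and Elavl3. Gdf11 was 3.11-fold lower at P0 (log2 fold change -1.64 ± 0.34 SE, adjusted p = 0.00512), and without NPD4 the log2 fold change was -1.34 (adjusted p = 0.0126). The part of neural tissue in the NPD4 value was not tested.

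Gdf5 and Gdf6, which mark forming joints and act in disc and tendon development, were the scarcest of the 10 ligands. Gdf5 was near the limit of detection at both stages, and Gdf6 was near it at P0. Gdf5 (ENSMUSG00000038259.4, chr2:155941023-155945367, minus strand) had 0, 4, 0 and 5 counts at E12.5 and 1, 3, 1 and 3 counts at P0, so no difference could be seen at this depth. Another gene on the opposite strand, Gm15557, covers 40.3% of its exon bases. Gdf6 (ENSMUSG00000051279.2, chr4:9844372-9862345, plus strand) had 6, 12, 8 and 35 counts at E12.5 and 1, 7, 1 and 1 counts at P0. The stages overlapped in CPM, with 0.967 to 8.61 CPM at E12.5 and 0.118 to 1.01 CPM at P0, because NPD27 at P0 reached the lowest E12.5 litter. When no genes were filtered out, Gdf6 passed the test with a log2 fold change of -3.13 (adjusted p = 0.0123).

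Levels of different ligands were compared as CPM per kb of exon, which adjusts for the length of all annotated exons of a gene. This need not be the length of the transcript that was expressed. For Bmp5, 46.7% of it is shared with an antisense gene, so the order of the ligands is approximate. The 10 ligands summed to 60.5 ± 11.6 CPM per kb at E12.5 and to 25.8 ± 6.44 CPM per kb at P0 (SD, n = 4). At E12.5 the levels ran, from high to low, Bmp7 17.9, Bmp4 9.83, Gdf11 7.96, Bmp3 7.15, Bmp5 6.63, Gdf10 5.81, Bmp2 2.30, Bmp6 1.73, Gdf6 0.944 and Gdf5 0.217 CPM per kb. Bmp7 exceeded the next ligand, Bmp4, in 4 of 4 litters, and Gdf10 exceeded Bmp2 in 4 of 4. From Bmp4 to Gdf10, neighbors in this order were within each other's spread. Bmp4 exceeded Gdf11 in 3 of 4 litters and Gdf11 exceeded Bmp3 in 2 of 4. Bmp3 exceeded Bmp5 in 3 of 4 and Bmp5 exceeded Gdf10 in 3 of 4. The ends of this run were apart, with Bmp4 above Gdf10 in every E12.5 litter. At P0 the levels ran Bmp5 7.79, Bmp7 3.93, Bmp2 3.89, Bmp4 3.11, Gdf11 2.57, Bmp6 2.50, Bmp3 1.16, Gdf10 0.570, Gdf5 0.125 and Gdf6 0.102 CPM per kb. Bmp5 exceeded Bmp7 in 3 of 4 litters, while Bmp7 and Bmp2 were within each other's spread and so were Gdf11 and Bmp6, each exceeding the next in 1 of 4 litters. Bmp6 exceeded Bmp3, and Bmp3 exceeded Gdf10, in 4 of 4.

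The share of each ligand in this sum describes the make-up of the ligand pool. The shares of Bmp3, Bmp7 and Gdf10 were lower at P0 and those of Bmp2 and Bmp6 higher, with no overlap between stages. Bmp7 made up 33.7%, 30.8%, 26.6% and 25.9% of the summed level at E12.5 and 16.0%, 18.1%, 10.5% and 16.4% at P0. It was the leading ligand in 3 E12.5 litters, and in NPD4 Gdf11 led with 28.2%. Bmp5 made up 11.7%, 15.2%, 7.41% and 8.54% at E12.5 and 24.6%, 9.62%, 39.2% and 39.9% at P0. It led in 3 P0 litters, and in NPD27 Bmp2 led with 22.6%. Bmp2 made up 3.62% on average at E12.5 and 15.9% at P0, without a called change in its own level.

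**Figure D2:**
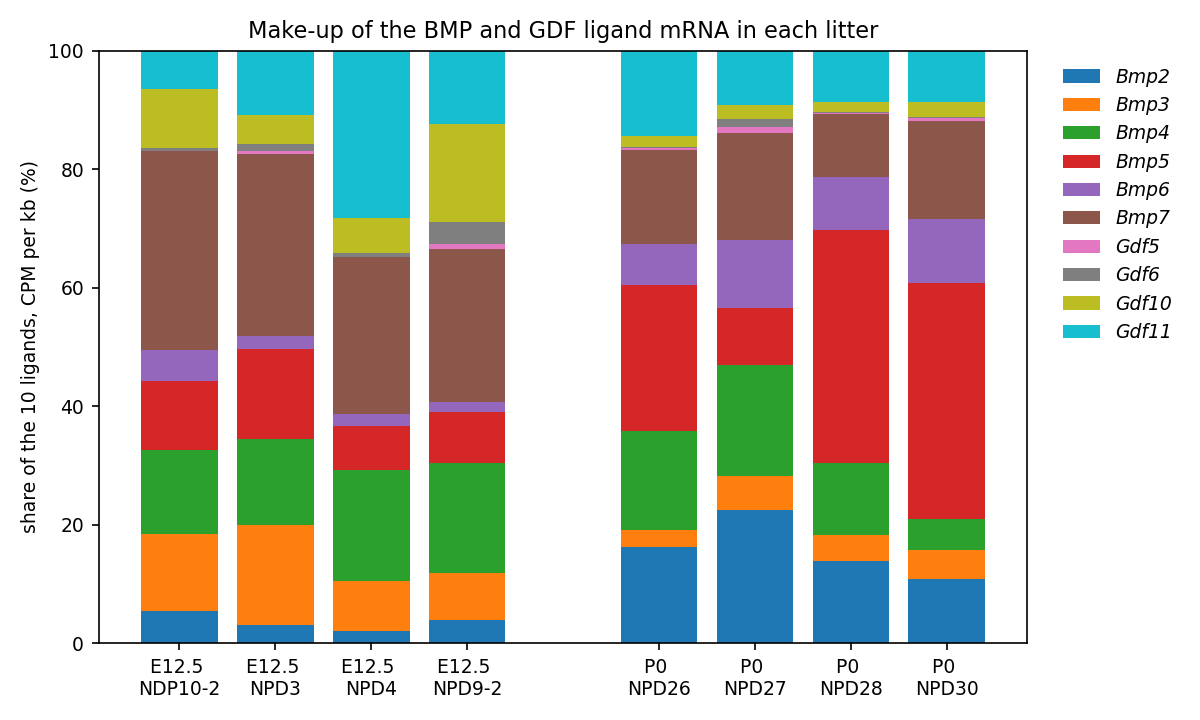
Share (%) of each ligand in the summed CPM per kb of exon of the 10 ligands, stacked for each of the 4 E12.5 and 4 P0 litters. Bmp7 takes 25.9% to 33.7% of each E12.5 bar and 10.5% to 18.1% of each P0 bar, and Bmp5 takes 39.2% and 39.9% of the bars of NPD28 and NPD30.

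Whether close relatives changed by different amounts was tested on the log2 ratio of their CPM within each litter, where library size cancels. Each of 5 pairs was given a two-sided exact permutation test over the 8 litters, whose p cannot go below 0.0286 with 4 litters a stage, and p-values were adjusted over the 5 by the Benjamini-Hochberg method. A further planned pair, Gdf5 and Gdf6, was too scarce to be tested, so p-values were adjusted over fewer pairs than planned. Pairs at the lowest possible p share the same adjusted p. Its value, and so whether it is under 0.05, depends on how many pairs were tested and how many reached that p. Had the further planned pair been tested and not reached that p, the shared adjusted p would have been above 0.05. The adjusted p-values under 0.05 below therefore hold only for the pairs that could be tested. The ratio of Bmp2 to Bmp4 was -0.71, -1.53, -2.45 and -1.53 on the log2 scale at E12.5 and 0.60, 0.90, 0.82 and 1.66 at P0. In CPM the ratio favored Bmp4 in every E12.5 litter and Bmp2 in every P0 litter, while per kb of exon Bmp4 was still slightly above Bmp2 in NPD26 at P0, with 16.6% against 16.2% of the ligand sum. The mean ratio was higher at P0 by 2.55 (exact permutation p = 0.0286, adjusted p = 0.0476).

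The ratio of Bmp5 to Bmp7 was -1.51, -1.02, -1.82 and -1.58 at E12.5 and 0.61, -0.88, 1.87 and 1.27 at P0. Bmp7 exceeded Bmp5 in all E12.5 litters and, among P0 litters, only in NPD27. The mean ratio was higher at P0 by 2.20 (exact permutation p = 0.0286, adjusted p = 0.0476). The ratio of Bmp6 to Bmp7 was -3.52 ± 0.52 at E12.5 and -0.69 ± 0.40 at P0 (SD, n = 4). It was higher at P0 by 2.83 (exact permutation p = 0.0286, adjusted p = 0.0476), with Bmp7 above Bmp6 in all 8 litters. These 2 comparisons share Bmp7, so they are not independent of each other. In contrast, the stages overlapped for Bmp5 to Bmp6, with a difference of -0.63 (exact permutation p = 0.371, adjusted p = 0.464). They also overlapped for Bmp3 to Gdf10, with a difference of 0.53 (exact permutation p = 0.486, adjusted p = 0.486), although the E12.5 ratios of that pair spread from -0.55 to 2.26.

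**Figure D3:**
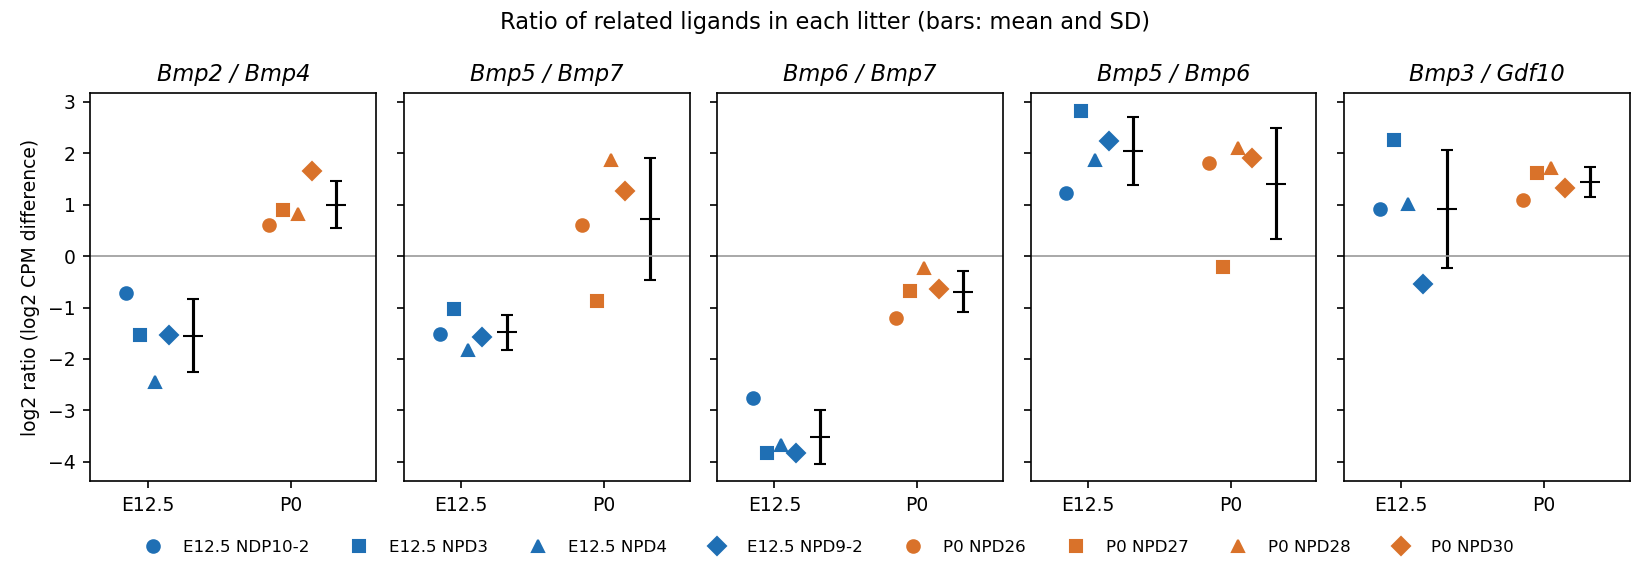
Log2 ratio of CPM within each litter for 5 pairs of related ligands, E12.5 in blue and P0 in orange, with mean and SD beside each stage and a line at a ratio of 1 (log2 of 0). The stages are apart for Bmp2 to Bmp4, Bmp5 to Bmp7 and Bmp6 to Bmp7, with P0 minus E12.5 differences of 2.55, 2.20 and 2.83, and overlap for the other pairs.

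T (brachyury), the transcription factor that marks the notochord lineage, varied between litters and gave a second scale. T was at 942, 790, 242 and 362 CPM at E12.5 and at 1007, 574, 1372 and 2323 CPM at P0. Its log2 fold change of 1.18 did not pass the test (adjusted p = 0.117). Within P0 the litters stood in the same order for Bmp5 as for T, and within E12.5 the order differed only in the top 2 litters. Bmp6 and Bmp7 stood in the order of T within E12.5 but not within P0. Bmp3 differed from that order only in the top 2 litters at E12.5, and did not follow it at P0. On the log2 scale Bmp5 per T was -4.79, -4.38, -4.16 and -4.01 at E12.5 and -5.46, -6.10, -5.15 and -5.35 at P0. The SD of this ratio was 0.34 at E12.5 and 0.41 at P0, against 0.68 and 1.20 for log2 Bmp5 alone, and on this scale the stages did not overlap. At E12.5 the ratio to T also spread less than the ligand alone for Bmp2 (SD 0.62 against 0.85), Bmp3 (0.28 against 0.70) and Bmp6 (0.56 against 0.86). It spread more there for Bmp4, Bmp7, Gdf10 and Gdf11. At P0 it spread more for every tested ligand but Bmp5.

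Relative to T, 6 of the 8 tested ligands had every P0 litter below every E12.5 litter, namely the 5 that fell and Bmp5. This was so for 18.4% of all tested genes, while 1.8% lay wholly above. T itself had a log2 fold change of 1.18, though not called, and this shift lowers the ratio of every gene at P0 on average. The log2 fold change of Bmp5 alone was 0.24, with overlap between stages. Its lower ratio to T is therefore not a fall in its own abundance. The difference in mean log2 ratio to T was -3.73 for Bmp3, -2.86 for Bmp4, -1.18 for Bmp5, -3.38 for Bmp7, -4.26 for Gdf10 and -2.75 for Gdf11. Bmp2, with -0.31, and Bmp6, with -0.55, overlapped between stages. These ratios were chosen after the data were seen and are given as a description.

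**Figure D4:**
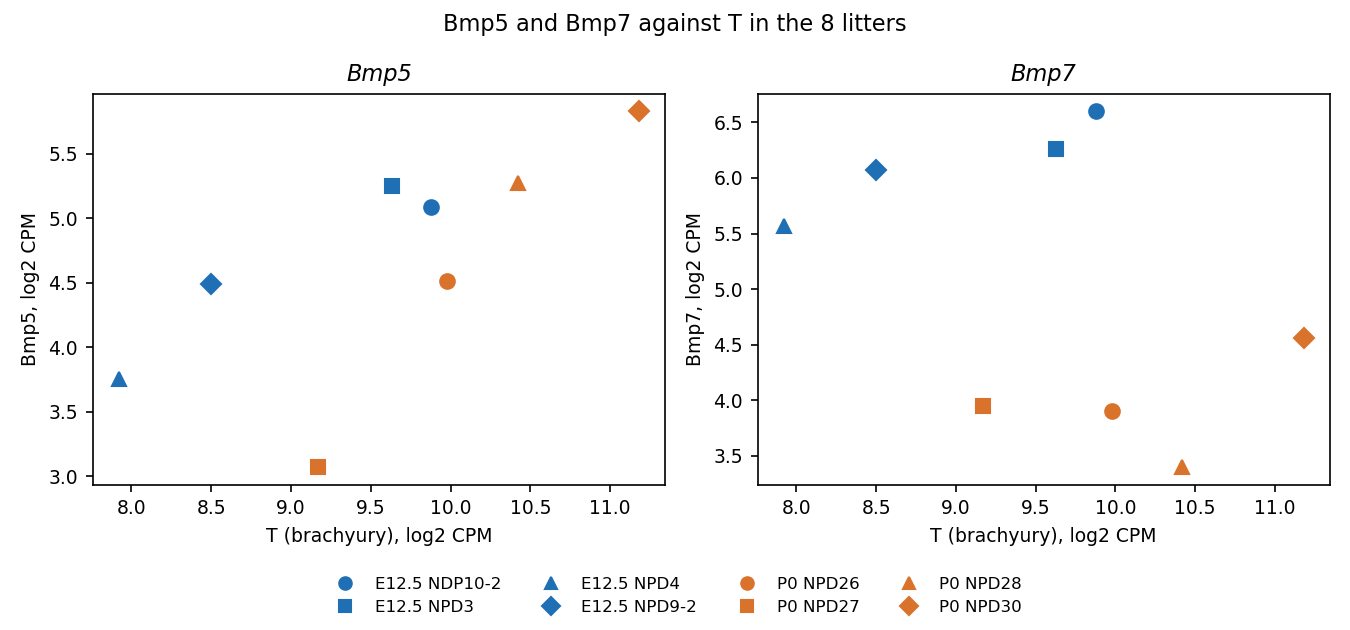
Log2 CPM of Bmp5 (left) and Bmp7 (right) against log2 CPM of T in the 8 litters, E12.5 in blue and P0 in orange. Within each stage Bmp5 stands higher in litters with more T, except for the top 2 at E12.5. Bmp7 follows the order of T at E12.5 but not at P0, and its P0 points lie below all E12.5 points over the whole range of T.

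For each ligand that fell, the 2 non-member genes closest in pattern were found by the root mean square difference of log2 CPM over the 8 litters, each gene centred on its mean, among 12680 genes with a mean log2 CPM of at least 2. Bmp7 was matched most closely by Cpxm1 (0.13) and Fam110b (0.19), and Bmp4 by Nectin2 (0.15) and Dnah1 (0.24). Next to Bmp3 were Galnt5 (0.26) and Igdcc4 (0.27), and next to Gdf10 were Fndc5 (0.26) and Nkd1 (0.27). Gdf11 was nearest to Gpm6b (0.25) and Afap1 (0.26), both of which were also highest in NPD4, at 156 CPM and 199.5 CPM. The likeness covers both the fall with stage and the differences between litters.

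Among 11 further ligands of the family, 10 were found and only Bmp8a and Mstn passed the filter. Mstn, which limits muscle growth and is the closest relative of Gdf11, was at 5.43, 4.49, 6.89 and 6.39 CPM at E12.5 and at 0, 0.144, 0 and 0.303 CPM at P0. All P0 values were under the floor, and Mstn was called lower (log2 fold change -5.52 ± 0.78 SE, adjusted p = 0.000727). Bmp8a was not called (log2 fold change 1.99 ± 1.04 SE, adjusted p = 0.184).

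Of the 9 receptors that bind these ligands or relay their signal, 2 were higher and 2 lower at P0, and 5 were not called. The same fit called 16% of all tested genes higher and 12% lower, and these shares are the background for the counts of every list below. Bmpr1b, a type I receptor with high affinity for Gdf5, was at 10.1, 16.8, 8.95 and 15.3 CPM at E12.5 and at 2.52, 3.89, 1.41 and 4.40 CPM at P0. It was lower at P0 with no overlap between the stages (log2 fold change -2.06 ± 0.44 SE, adjusted p = 0.0055). Bmpr1a, the widely expressed type I receptor, ranged from 111 to 206 CPM at E12.5 and from 54.7 to 125 CPM at P0. Its log2 fold change of -0.84 ± 0.30 SE missed the threshold (adjusted p = 0.0541) and passed it with DESeq2 (adjusted p = 0.0316). It also passed with limma-voom (adjusted p = 0.0454), without a filter on low counts (adjusted p = 0.0378) and in 2 of the 8 fits that left out a litter. It did not pass with RLE normalization (adjusted p = 0.0527) or without NDP10-2 and NPD9-2 together (adjusted p = 0.0624). Acvr1 had a log2 fold change of 0.14 ± 0.23 SE (adjusted p = 0.682), and Acvr1b and Tgfbr1, the type I receptors used by Gdf11, had -0.42 ± 0.22 SE and 0.20 ± 0.31 SE (adjusted p = 0.19 and 0.684).

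Acvrl1, a type I receptor best known from endothelium, was at 4.25, 1.56, 4.96 and 5.90 CPM at E12.5 and at 20.4, 25.2, 34.8 and 4.70 CPM at P0. It was called higher (log2 fold change 2.35 ± 0.59 SE, adjusted p = 0.0124), but NPD30, the P0 litter with the fewest leukocyte transcripts, stood within the E12.5 range. Its call was lost with limma-voom (adjusted p = 0.0822) and without NDP10-2 and NPD9-2 (adjusted p = 0.0734). Of 6 endothelial markers 1 was lower and 5 were not called, with sums of 74.4 to 154 CPM at E12.5 and 24.6 to 118 CPM at P0. The part of endothelial cells or leukocytes in the Acvrl1 values was not tested. Of the type II receptors, Acvr2b fell from 26.9 to 52.8 CPM at E12.5 to 3.62 to 5.00 CPM at P0 (adjusted p = 0.000147). Acvr2a was higher, with 36.8 to 67.0 CPM at E12.5 and 85.2 to 455 CPM at P0 (adjusted p = 0.0104), a call that was lost without NDP10-2 and NPD9-2 (adjusted p = 0.123). Bmpr2, which binds BMPs but not activins, was not called (log2 fold change -0.43 ± 0.26 SE, adjusted p = 0.25).

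**Figure D5:**
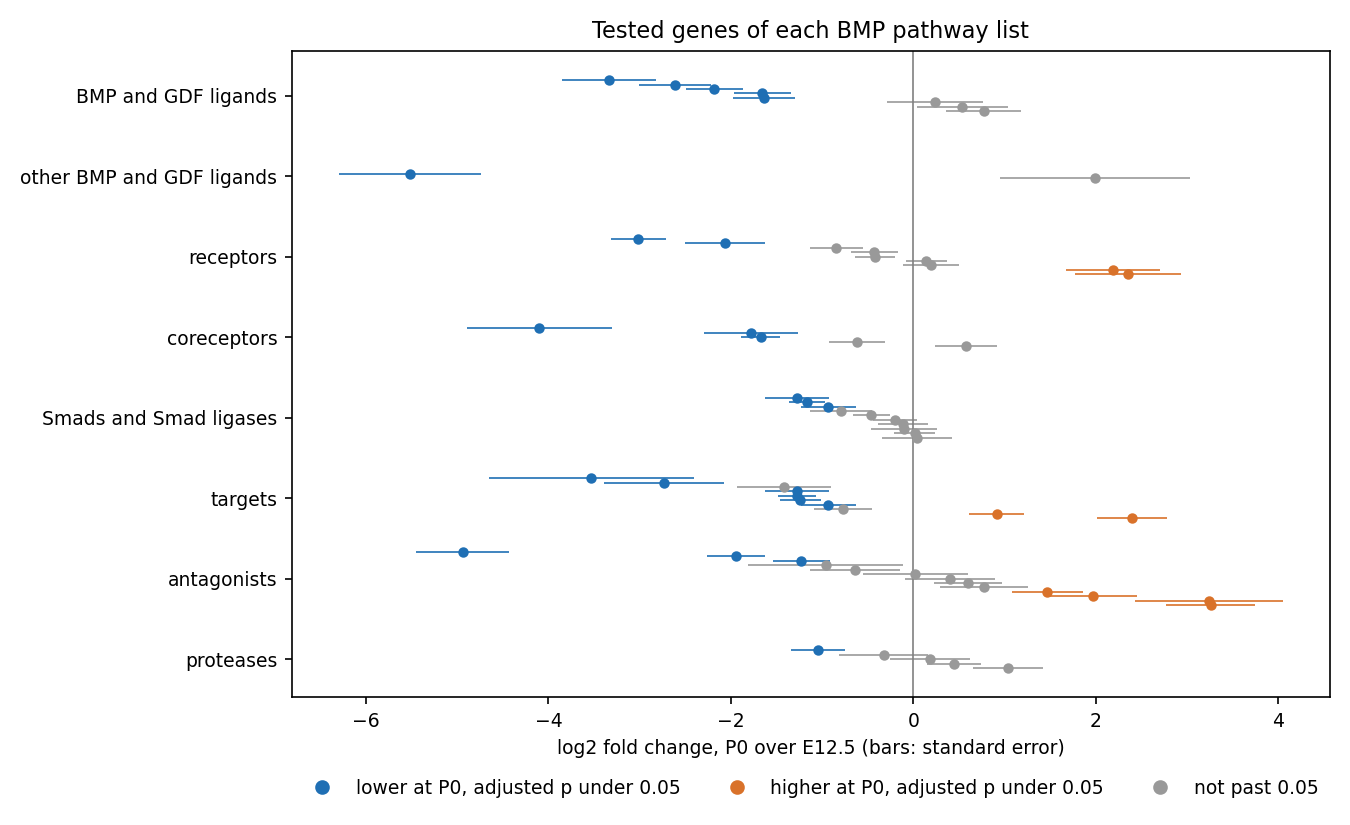
Log2 fold change (P0 over E12.5, bars SE) of each tested gene of the BMP and GDF ligands and of 7 lists of pathway genes, blue where called lower, orange where called higher and grey where not called. Of the 8 tested ligands 5 are lower and none higher, receptors and antagonists hold calls in both directions, and coreceptors and Smads hold only lower calls.

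Across all 7 lists outside the 10 ligands, 52 distinct genes were tested, of which 17 were lower, 8 higher and 27 not called, with a median log2 fold change of -0.42. Against the background of 12% lower and 16% higher, the count of higher genes was near what all tested genes gave. Of 5 coreceptors, 3 were lower. These were Hfe2, Rgma and Rgmb, the repulsive guidance molecules that bind BMPs directly. Hfe2 was at 4.11 to 18.9 CPM at E12.5 and at 0 to 1.15 CPM at P0 (log2 fold change -4.10 ± 0.80 SE, adjusted p = 0.00356). Rgma had a log2 fold change of -1.78 ± 0.51 SE (adjusted p = 0.0258), with overlap between the stages, and its call was lost without NDP10-2 and NPD9-2 (-1.18, adjusted p = 0.204) and in 4 of the 8 fits that left out a litter.

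Among 10 Smads and Smad ligases, 3 were lower and none higher, with a median log2 fold change of -0.33. Smad5, an effector of BMP receptors, fell from 143, 188, 157 and 174 CPM at E12.5 to 65.4, 71.7, 75.6 and 82.3 CPM at P0. The litters of each stage were close together, and the log2 fold change was -1.17 ± 0.20 SE (adjusted p = 0.00201). Smad6, an inhibitory Smad that BMPs themselves induce, had -1.28 ± 0.35 SE (adjusted p = 0.0205). Without NDP10-2 and NPD9-2 its change was -0.88 (adjusted p = 0.174), and 5 of the 8 fits that left out a litter kept its call. The other called gene was Smad7, also an inhibitory Smad (log2 fold change -0.93 ± 0.30 SE, adjusted p = 0.0413). Its call was kept in only 2 of the 8 fits that left out a litter, and was lost with limma-voom (adjusted p = 0.0681) and without NDP10-2 and NPD9-2 (-0.45, adjusted p = 0.336). The remaining 7 genes of the list were not called.

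Of 10 genes often used as BMP targets, 6 were lower, 2 higher and 2 not called, with a median log2 fold change of -1.26. Smad6 and Smad7 belong to this list as well as to the Smads above, so their lower calls are counted in both. Id1 and Id3, inhibitors of basic helix-loop-helix factors and common readouts of BMP receptors, were among the lower genes. Id1 was at 83.1 to 97.2 CPM at E12.5 and at 30.6 to 46.4 CPM at P0, and Id3 at 119 to 163 CPM and at 48.3 to 62.6 CPM. The largest decreases in the list were those of the homeobox genes Msx2 (log2 fold change -3.53 ± 1.12 SE, adjusted p = 0.0394) and Msx1 (-2.73 ± 0.66 SE, adjusted p = 0.0104). Msx2 overlapped between stages and, without NDP10-2 and NPD9-2, had -1.66 (adjusted p = 0.417), its call being kept in 3 of the 8 fits that left out a litter, and Msx1 then had -2.45 (adjusted p = 0.0828). Id4 was higher, at 19.9 to 33.3 CPM at E12.5 and at 60.7 to 240 CPM at P0 (log2 fold change 2.39 ± 0.38 SE, adjusted p = 0.00136). Id2 was the other higher gene (log2 fold change 0.91 ± 0.31 SE, adjusted p = 0.0453), and its call was kept in only 1 of the 8 fits that left out a litter.

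Of 13 tested antagonists that bind the ligands outside the cell, 4 were higher, 3 lower and 6 not called. Nog, the notochord's own BMP antagonist, was at 44.1, 29.9, 13.4 and 27.5 CPM at E12.5 and at 1.26, 0.288, 1.06 and 1.06 CPM at P0. The P0 values were close to the floor, and the log2 fold change was -4.94 ± 0.51 SE (adjusted p = 0.000166). Fst, which binds activins, Gdf11 and some BMPs, was lower as well (log2 fold change -1.94 ± 0.32 SE, adjusted p = 0.00148). In contrast, Sostdc1, an antagonist of BMPs and Wnts, was at 86.8, 64.4, 30.0 and 40.1 CPM at E12.5 and at 419, 232, 486 and 977 CPM at P0. Every P0 litter exceeded every E12.5 litter (log2 fold change 3.26 ± 0.49 SE, adjusted p = 0.00111). Fstl3, a relative of Fst, was higher from a low level, 0 to 1.42 CPM at E12.5 and 2.88 to 11.4 CPM at P0 (log2 fold change 3.24 ± 0.81 SE, adjusted p = 0.0122). The remaining calls were Grem1 and Nbl1, which were higher, and Crim1, which was lower. Without NDP10-2 and NPD9-2 the calls of Grem1 (1.40, adjusted p = 0.0891) and Crim1 (-0.99, adjusted p = 0.0762) were lost, and that of Nbl1 was lost without NPD3 (adjusted p = 0.0598).

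Among 5 tested proteases that cut BMP precursors or free the ligands from antagonists, 1 was lower and 4 were not called. The lower gene was Bmp1, which despite its name is a protease that cleaves procollagens and chordin (log2 fold change -1.04 ± 0.30 SE, adjusted p = 0.0231). Its call was lost in 4 of the 8 fits that left out a litter (those without NDP10-2, NPD9-2, NPD26 or NPD27) and without NDP10-2 and NPD9-2 together (-0.88, adjusted p = 0.154).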

How the data were processed

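NDCs of Shh-cre;ROSA:YFP mice were sequenced at E12.5 (4 litters, dissected) and P0 (4 litters, sorted for YFP), in single-end libraries. The authors aligned reads with STAR (2.4.0j in the submitters' processing notes) to GRCm38, counted those on each Gencode M4 gene (htseq-count) and deposited these raw counts, not normalized. The strand setting is not given in the sources used here. Rows that name no gene (no feature, ambiguous, not unique) were left out of library sizes. Gene positions and exon lengths are from Gencode M21 on GRCm38, and 42462 of 43346 identifiers matched a symbol.

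Counts were tested in R 4.3.3 with edgeR 4.0.16 (TMM, filterByExpr with minimum count 10 and minimum total 15, robust quasi-likelihood F-test, stage as the only term), which left 15467 genes. The SE is the log2 fold change divided by the square root of F. CPM uses TMM library sizes, with a prior count of 2 in log2 CPM. Scripts were checked on simulated data. Alternatives were DESeq2 1.42.0, limma 3.58.1 (voom), RLE factors, no filter, a prior count of 0.5 for the pairs, each litter left out in turn and, added after the data were seen, NDP10-2 and NPD9-2 left out together. Groups came from the samples' labels. Members and lists were chosen with earlier results of these data known. Named genes are all ligands and receptors, up to 2 called genes per direction with the largest change in each other list, and the 2 nearest genes of each called ligand. The other calls of a list (Rgmb, Smad7, Id1, Id3, Grem1, Nbl1, Crim1), Bmp8a and T were named in addition.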

Additional observations from a re-analysis of the deposited data

Results flagged for a closer look

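Within a stage, the abundance of each named ligand and pathway gene and of T was examined for a litter that stood apart from the other 3 by Dixon's criterion at the 95% level. Of 84 groups 5 were marked, and chance alone marks about 1 in 20. The P0 litter NPD27 stood apart in 3 of the 5. Gdf6 in NPD27 was at 0.41 log2 CPM, against -1.19 to -1.07 in the other P0 litters, and rests on 7 counts against 1 in each of the others. Nog in NPD27 was at -0.72 log2 CPM, against 0.46 to 0.66 in the other P0 litters, near the depth limit of these libraries. Id3 in NPD27 was at 5.60 log2 CPM, against 5.93 to 5.98 in the other P0 litters. Bmp8a in the P0 litter NPD26 was at -1.65 log2 CPM, with no counts, against 1.85 to 2.45 in the others. Rgmb in the E12.5 litter NPD4 was at 6.92 log2 CPM, against 6.53 to 6.59 in the others.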

How the results depend on the processing

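The same 5 ligands were lower and 0 were higher in each of the 13 alternatives, and leaving out 1 litter gave 5 to 5 lower and 0 to 0 higher. Without a filter on low counts, Gdf6 joined them. Of 104 values of single ligands 103 kept their direction and their side of the threshold. The exception was Bmp5, at -0.25 without NPD30 and up to 0.57 without NPD27. For the pathway lists, leaving out 1 litter gave 7 to 9 genes higher and 12 to 18 lower, and leaving out NDP10-2 and NPD9-2 together gave 5 higher and 10 lower against 8 and 17, with fewer litters in the fit. In that fit Tgfbr1 changed sign, to -0.10 (adjusted p = 0.882). For the 25 called pathway genes, the receptors that were not called and Bmp8a, 350 of 403 values kept direction and side, 47 lost and 5 gained the call. Of the 25 called genes, 13 kept their call in every alternative. DESeq2 and RLE factors lost 0 calls, no filter lost 2 (Msx2, Rgma), limma-voom lost 4 (Acvrl1, Id2, Msx2, Smad7) and each litter left out lost 1 to 6. Leaving out NDP10-2 and NPD9-2 lost 11, namely Acvr2a, Acvrl1, Bmp1, Crim1, Grem1, Id2, Msx1, Msx2, Rgma, Smad6 and Smad7. Without a filter 11 pathway genes were higher. Differences in pair ratios with 1 litter left out were 2.25 to 2.83 for Bmp2 to Bmp4, 1.82 to 2.73 for Bmp5 to Bmp7, 2.68 to 3.09 for Bmp6 to Bmp7, -0.90 to -0.09 for Bmp5 to Bmp6 and 0.04 to 0.98 for Bmp3 to Gdf10. With 3 litters against 4 the exact test cannot go below 0.0571, so these ranges carry no call. No paired analysis was possible because the litter codes are not shared between stages. Depth limits Gdf5 and Gdf6 and the P0 levels of Mstn, Hfe2 and Nog.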

Other observations

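Of the family's other ligands that did not pass the filter, Gdf15 was the most abundant in any litter. It was at 0, 0, 0.121 and 0 CPM at E12.5 and at 25.0, 18.5, 5.89 and 0.303 CPM at P0 in NPD26, NPD27, NPD28 and NPD30. The lowest P0 value was that of NPD30, the litter with 722 CPM of leukocyte markers against 2418 to 5965 CPM in the other P0 litters, and the part of leukocytes in the Gdf15 values was not tested. Without a filter on low counts Gdf15 was called higher (log2 fold change 7.56, adjusted p = 0.00427), from E12.5 litters at or under the floor. Gdf3 was at 2.36, 2.45, 1.18 and 0.303 CPM in the same P0 litters and at 0 in 3 of 4 E12.5 litters, and was also called higher in that fit (log2 fold change 4.66, adjusted p = 0.0165). The sizes of these changes depend on the prior count, since the E12.5 litters had at most 1 count. Bmp10 had no counts in any of the 8 litters, which allows up to 0.353 to 0.738 CPM per litter.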
